A study of Mus musculus with 12 samples.

Results

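The genes described here are the C-type lectins with Clec symbols, the Fc receptors, the sialic acid-binding Siglec lectins, the leukocyte immunoglobulin-like receptors (Lilr) and the membrane-spanning Ms4a family. They were taken by symbol from the deposited annotation: main-category genes whose symbol begins with Clec and a digit, Fcgr, Fcer, Siglec, Lilr or Ms4a, leaving out Clec10a, Fcer1a and Ms4a2. This gave 64 of the 21651 genes measured. A few of them carry such a symbol without being immune receptors. Clec16a is an intracellular protein of endosomes and mitochondrial turnover, Clec3a, Clec3b, Clec11a and Clec18a are secreted, and Fcgrt is the recycling receptor of IgG and albumin.

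Many of these proteins sit on macrophages and dendritic cells. Activating members carry or borrow an ITAM, a tyrosine motif that recruits the kinase Syk, through adapters such as the Fc receptor gamma chain (Fcer1g) and Tyrobp. Inhibitory members carry an ITIM, which recruits the phosphatases Ptpn6 and Inpp5d. In obese fat, macrophages gather around dying adipocytes, and many of these receptors serve there to sense lipids, debris and antibody complexes.

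RNA came from brown fat (BAT), the heat-producing depot, and white fat (WAT), the storage depot, of male C57 mice aged 4 months on chow. The 4 groups, each of 3 Affymetrix mouse gene arrays, were triple mutant BAT (ob/ob/Cidea-/-/Cidec-/-), ob/ob BAT, triple mutant WAT and ob/ob WAT. All animals thus carried the ob mutation of leptin, which makes mice obese, and the triple mutants were labelled as also lacking Cidea and Cidec, lipid droplet proteins that promote droplet fusion. There was no lean or leptin-sufficient group, and the white depot is not named. The names of 12 array columns in a deposited table, which match no sample uniquely, carry 7 different numbers, 5 of them under both tissues, and nothing says what they number. Since no label states whether replicate arrays stand for different animals, the p-values cover the spread among these arrays and nothing wider, and that spread could be technical.

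The genotypes are given as labelled. The signal of Cidea was 11.29, 11.39 and 11.29 on the triple mutant BAT arrays, against 11.39, 11.44 and 11.51 on the ob/ob BAT arrays. In WAT it was 8.42, 8.95 and 10.03 on the triple mutant WAT arrays, against 4.86, 5.55 and 5.51 on the ob/ob WAT arrays. Cidec was at 10.81, 10.83 and 10.79 on the triple mutant BAT arrays, against 10.59, 11.12 and 11.03 on the ob/ob BAT arrays. Its WAT signals were 11.25, 11.07 and 11.04 on the triple mutant WAT arrays, against 11.25, 11.57 and 11.87 on the ob/ob WAT arrays. These signals do not show the labelled loss. The labels do not say which part of either gene was deleted, so the probes may lie outside it, and every direction below is between arrays labelled triple mutant and arrays labelled ob/ob. The highest antigenomic control, a probe set that matches no mouse gene and so measures background, ran from 7.40 to 8.13 across the arrays, and 19.5% to 32.3% of all genes lay above it.

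Values are log2 signals, and a difference of 1 is a doubling of signal. A gene was called when its limma adjusted p, over all 21651 genes, was under 0.05. Of the 64 genes, 21 lay above the highest control on all 3 arrays of at least 1 group, and 38 lay under it on all 12 arrays. Of these 38, 9 were called in WAT and 6 in BAT, beside 34.3% and 17.4% of all genes. Where a group lies under the highest control on all its arrays, its level is only bounded from above. The log2 change is then the difference of the measured signals, and the fold is given as a lower bound, the mean of the brighter group over that of the highest controls of the dimmer one. It is left out where that ratio is under 1, and where only some arrays of the brighter group were above the control their number is given.

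In WAT, 28 of the 64 genes were lower in triple mutants and 4 were higher, which is 50% called, against a background of 34.3% of all genes (16.7% lower and 17.6% higher). The largest falls were in Clec4d, Lilrb4, Ms4a6d, Clec12a, Clec7a, Clec4a2, Lilrb3 and Fcer1g, with log2 changes from -3.95 to -2.98. The rises were in Clec16a, Clec14a, Clec2l and Ms4a5, none above 0.77. In BAT, 24 genes were lower and 1 was higher, which is 39.1% called, against 17.4% of all genes (6.97% lower and 10.4% higher). The BAT falls were led by Clec12a, Ms4a6c, Lilrb4 and Fcer1g at log2 changes from -1.99 to -1.82. The median change of the 64 genes was -0.28 in BAT and -0.33 in WAT, beside -0.03 and 0.04 over all genes. Every triple mutant array lay below every ob/ob array for 29 genes in BAT and 33 in WAT (17.3% and 21.8% of all genes), and above for 3 in BAT and 4 in WAT (18.2% and 24.9% of all genes).

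The tissues shared 21 of the lower genes, which is 21 of 24 in BAT and 21 of 28 in WAT, and Clec16a was higher in both. By call, 3 genes were lower in BAT alone (Clec4n, Ms4a4c and Siglece) and 7 in WAT alone (Clec4d, Clec9a, Clec2g, Fcgr4, Lilra6, Ms4a4b and Ms4a14), and 29 were called in neither. Over all genes 6.97% were lower in BAT and 16.7% in WAT. How many were lower in both was not counted, so the sharing has no background to be read against. With each array centred on the median of its genes, 20 of the 64 genes were lower in BAT, and 929 of the 4361 calls over all genes were lower, against 1509 of 3760 without centring. In bulk tissue, fewer cells of a type and less RNA per cell cannot be told apart.

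**Figure D1:**
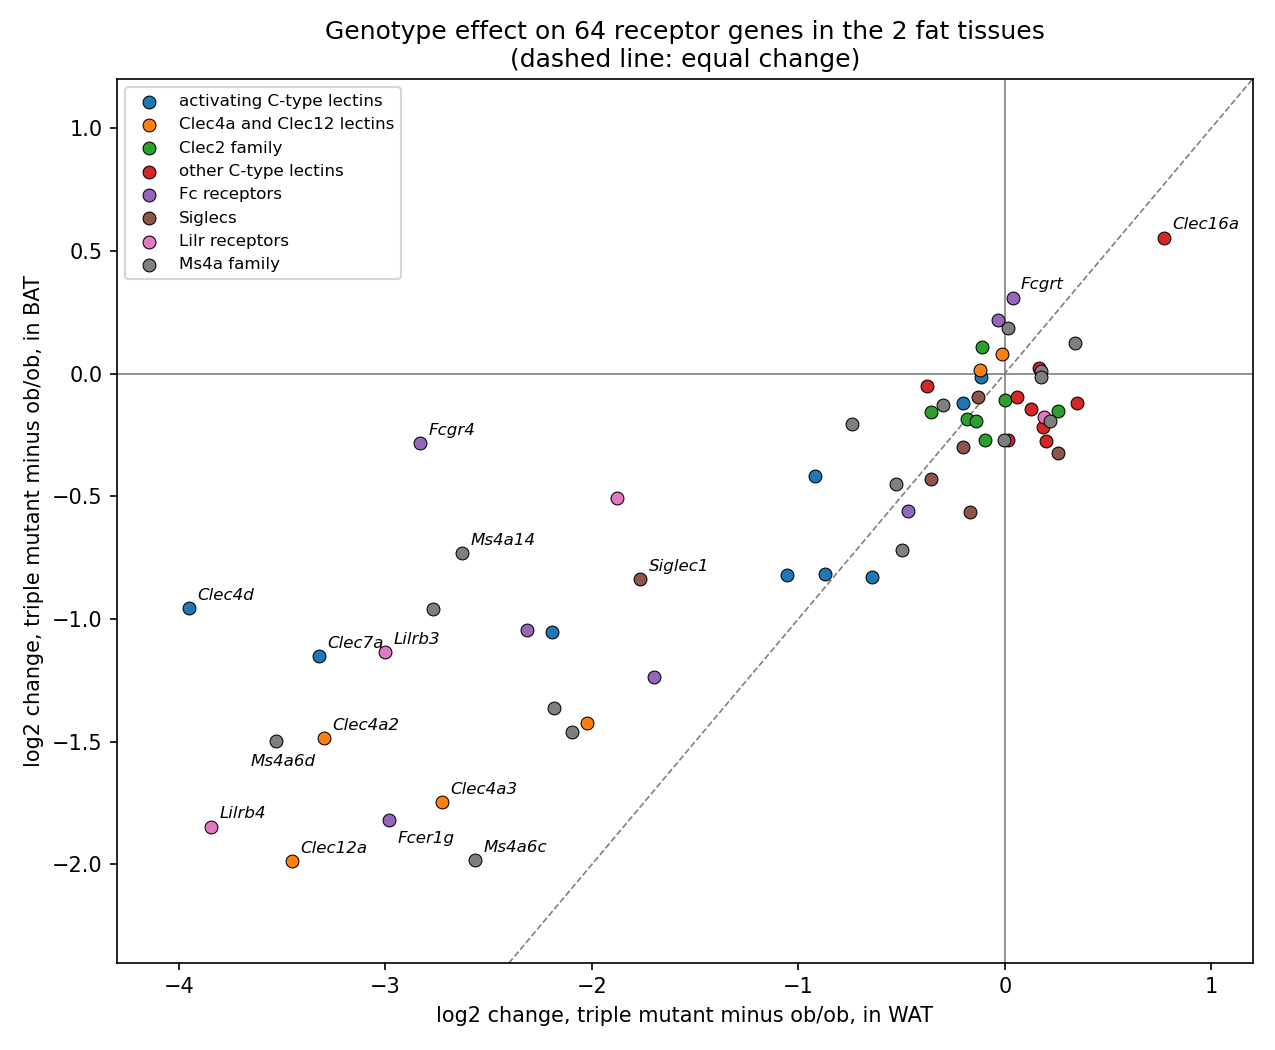
Log2 change between triple mutants and ob/ob in BAT (vertical axis) against the same change in WAT (horizontal axis) for the 64 genes, 1 point per gene, coloured by family. Most of the genes with large falls lie above the dashed line of equal change, with Clec4d at -0.96 in BAT and -3.95 in WAT, while Clec16a lies at 0.55 and 0.77.

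Markers of macrophages moved with these genes. Of 15 macrophage markers, 11 were lower in triple mutant BAT and 13 in triple mutant WAT, with median log2 changes of -1.25 and -2.08. Over all genes 6.97% and 16.7% were lower. Their mean signal per array was 7.05 to 7.11 in triple mutant BAT against 8.07 to 8.70 in ob/ob BAT, and 7.66 to 7.66 in triple mutant WAT against 9.70 to 9.74 in ob/ob WAT. Summed on the linear scale, the 15 signals came to 3045 to 3338 in triple mutant BAT against 6393 to 11030 in ob/ob BAT, and 4568 to 4838 in triple mutant WAT against 23090 to 25600 in ob/ob WAT. The part of macrophage number in the receptor changes was not tested.

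Promoter sequence is shown for 5 genes with large falls in WAT and for Clec16a, which rose in both tissues, so that the windows can be read beside the changes. The 5 had the largest called falls among genes with a window. Lilrb4 and Ms4a6d, at -3.84 and -3.53 in WAT, had no window under their symbols. Each window runs from 250 bases before to 50 after the annotated start, on mouse build GRCm38.p6, from RefSeq. Capitals mark GAGGAA, a core motif of the myeloid transcription factor PU.1, or its reverse complement. Clec4d, chr6:123261857-123262156, plus strand, held 3 matches. Clec12a, chr6:129349994-129350293, plus strand, held 2. Clec7a, chr6:129472730-129473029, minus strand, held 1, and is the first of its 2 windows, both with a match. Clec4a2, chr6:123122440-123122739, plus strand, held none. Lilrb3, listed by RefSeq as Pirb, chr7:3720333-3720632, minus strand, held 3. Clec16a, chr16:10545089-10545388, plus strand, held 2.
Clec4d: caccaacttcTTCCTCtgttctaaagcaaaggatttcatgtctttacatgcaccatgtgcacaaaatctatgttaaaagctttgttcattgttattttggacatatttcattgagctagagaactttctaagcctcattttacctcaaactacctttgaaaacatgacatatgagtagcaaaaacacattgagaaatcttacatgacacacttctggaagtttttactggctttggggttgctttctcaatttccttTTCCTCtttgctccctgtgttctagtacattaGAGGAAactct
Clec12a: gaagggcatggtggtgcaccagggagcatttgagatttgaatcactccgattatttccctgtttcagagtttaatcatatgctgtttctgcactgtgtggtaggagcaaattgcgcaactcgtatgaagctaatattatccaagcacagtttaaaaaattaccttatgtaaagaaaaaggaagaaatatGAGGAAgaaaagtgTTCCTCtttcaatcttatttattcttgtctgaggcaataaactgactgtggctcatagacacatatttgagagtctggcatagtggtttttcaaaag
Clec7a: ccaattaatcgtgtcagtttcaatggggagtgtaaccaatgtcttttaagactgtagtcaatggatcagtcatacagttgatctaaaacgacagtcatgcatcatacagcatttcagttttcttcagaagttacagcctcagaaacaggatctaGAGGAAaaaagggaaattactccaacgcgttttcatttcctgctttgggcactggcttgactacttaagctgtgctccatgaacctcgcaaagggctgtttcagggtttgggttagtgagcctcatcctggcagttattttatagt
Clec4a2: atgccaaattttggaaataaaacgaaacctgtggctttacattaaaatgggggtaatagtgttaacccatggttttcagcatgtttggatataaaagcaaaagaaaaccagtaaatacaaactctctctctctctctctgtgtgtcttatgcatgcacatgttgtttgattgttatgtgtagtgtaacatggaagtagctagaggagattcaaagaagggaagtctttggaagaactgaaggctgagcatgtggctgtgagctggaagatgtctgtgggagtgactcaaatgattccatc
Lilrb3: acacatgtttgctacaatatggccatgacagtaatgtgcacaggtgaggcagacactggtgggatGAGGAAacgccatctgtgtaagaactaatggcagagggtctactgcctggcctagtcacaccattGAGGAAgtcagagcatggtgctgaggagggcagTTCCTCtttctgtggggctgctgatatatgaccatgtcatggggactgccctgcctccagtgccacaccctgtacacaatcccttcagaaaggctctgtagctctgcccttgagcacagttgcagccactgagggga
Clec16a: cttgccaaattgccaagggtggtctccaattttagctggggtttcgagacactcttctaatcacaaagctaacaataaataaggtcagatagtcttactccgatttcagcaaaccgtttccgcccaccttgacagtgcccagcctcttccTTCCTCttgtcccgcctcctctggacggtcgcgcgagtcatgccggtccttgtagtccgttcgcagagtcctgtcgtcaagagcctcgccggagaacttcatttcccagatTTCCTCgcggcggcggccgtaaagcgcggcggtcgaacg

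Windows were found for 52 of the 64 genes, 60 windows in all. GAGGAA on either strand was in 32 of these 60 windows (53.3%), against 28.3% of the 32851 windows of all genes. It was in 17 of the 28 windows of genes lower in triple mutant WAT (60.7%) and in 15 of the 32 windows of the other receptor genes (46.9%). The AP-1 motif TGANTCA was in 20.0% of the receptor windows and 7.81% of all windows, and the C/EBP motif TTGCNNAA in 23.3% and 10.8%. Among the windows of genes lower in triple mutant WAT the AP-1 motif was in 21.4% and the C/EBP motif in 14.3%, against 18.8% and 31.2% of the windows of the other receptor genes. The motif CACGTG was in 1.67% of the receptor windows, against 7.15% of all windows. Both strands were searched, overlapping matches of different motifs were all counted, and the windows and motifs were chosen after the values were seen, with no test.

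Among the 9 activating C-type lectins, 4 were lower in triple mutant BAT and 5 in triple mutant WAT. Of all genes, 6.97% were lower in BAT and 16.7% in WAT, which is the background for the family counts below. Clec7a (Dectin-1, chromosome 6, 129411609 to 129422790 on build NCBIM37), the receptor of fungal beta-glucan, had signals of 6.41, 5.60 and 5.72 on the triple mutant WAT arrays, against 9.53, 9.14 and 9.02 on the ob/ob WAT arrays. It fell, with a log2 difference of -3.32 (SE 0.24, limma adjusted p = 3.27e-06), at least 2.7-fold. The groups did not overlap, and all 3 triple mutant arrays lay under the highest control. In BAT it had signals of 5.61, 5.40 and 5.63 on the triple mutant BAT arrays, against 7.18, 6.32 and 6.59 on the ob/ob BAT arrays, also without overlap, and it fell by 1.15 on the log2 scale (SE 0.24, limma adjusted p = 0.00838). All of these BAT signals lay under the highest control.

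Clec4d (MCL or Dectin-3, chromosome 6, 123212135 to 123225283), which binds mycobacterial glycolipid and pairs with Clec4e, had signals of 4.29, 4.54 and 4.51 on the triple mutant WAT arrays, against 9.49, 8.34 and 7.35 on the ob/ob WAT arrays. Its log2 change was -3.95 (SE 0.41, limma adjusted p = 2.19e-05), at least 1.51-fold with 2 of the 3 ob/ob arrays above the highest control. All 3 ob/ob WAT arrays stood far above the triple mutant ones but spread over more than 2 log2 units among themselves. Its BAT signals were 4.91, 4.61 and 4.66 on the triple mutant BAT arrays, against 5.95, 5.18 and 5.92 on the ob/ob BAT arrays, with no overlap, a log2 change of -0.96 and no call (SE 0.41, limma adjusted p = 0.133). No BAT array was above the highest control.

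Clec4e (Mincle), which senses glycolipids and material from dead cells, had signals of 3.64, 3.67 and 3.94 on the triple mutant WAT arrays, against 4.80, 4.34 and 4.73 on the ob/ob WAT arrays. The groups did not overlap, yet the log2 change of -0.87 missed the threshold (SE 0.32, limma adjusted p = 0.0536). The BAT signals were 3.78, 3.67 and 3.56 on the triple mutant BAT arrays, against 4.57, 3.58 and 5.30 on the ob/ob BAT arrays, where ob/ob array 2 lay among the triple mutant arrays (log2 change -0.82, adjusted p = 0.104 by limma). Clec4e lay under the highest control on all 12 arrays, so these differences sit within the range of background probes.

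Clec4n (Dectin-2), a receptor of fungal mannans, was as dim. It had signals of 4.49, 4.66 and 4.42 on the triple mutant WAT arrays, against 5.58, 4.88 and 5.05 on the ob/ob WAT arrays, a log2 change of -0.64 that was not called (SE 0.25, limma adjusted p = 0.071). In BAT the signals were 3.92, 4.39 and 4.28 on the triple mutant BAT arrays, against 4.83, 4.59 and 5.65 on the ob/ob BAT arrays, and it fell by 0.83 (SE 0.25, limma adjusted p = 0.0426). Neither tissue showed overlap between its groups.

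The other activating lectins were Clec4b1, Clec4b2, Clec5a, Clec9a and Clec1b, all under the highest control on all 12 arrays. Clec4b1 (DCAR), which binds mycobacterial lipid in mice, fell, with log2 changes of -1.05 in BAT and -2.19 in WAT (limma adjusted p = 0.0164 and 5.44e-05). Clec5a, which signals through Tyrobp, fell, with changes of -0.82 in BAT and -1.06 in WAT (limma adjusted p = 0.0374 and 0.00487). Clec9a, the dead-cell receptor of cross-presenting dendritic cells, fell by 0.92 in WAT (limma adjusted p = 0.0016), and its BAT change was -0.42 with no call. Clec4b2 and Clec1b, the platelet receptor of podoplanin, had changes between -0.20 and -0.01, without a call.

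The Clec4a (DCIR) and Clec12 lectins belong to the families of inhibitory lectins, and 4 of these 6 genes were lower in triple mutants in both tissues. Clec12a (chromosome 6, 129300287 to 129315321), an ITIM receptor for uric acid crystals, had signals of 6.58, 6.63 and 6.75 on the triple mutant WAT arrays, against 10.23, 10.15 and 9.93 on the ob/ob WAT arrays. It fell in WAT, with a log2 difference of -3.45 (SE 0.34, limma adjusted p = 1.65e-05), at least 4.95-fold. Each group was tight, and the groups stood more than 3 log2 units apart. Across BAT it measured 5.93, 5.63 and 5.54 on the triple mutant BAT arrays, against 8.71, 6.86 and 7.49 on the ob/ob BAT arrays, and it fell by 1.99 (SE 0.34, limma adjusted p = 0.00311), with ob/ob array 1 far above the others. Only that BAT array lay above the highest control.

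Clec4a2 (DCIR1, chromosome 6, 123072708 to 123094017), which carries an ITIM, had signals of 4.35, 4.11 and 4.53 on the triple mutant WAT arrays, against 7.78, 7.63 and 7.47 on the ob/ob WAT arrays. The log2 change was -3.30 (SE 0.31, limma adjusted p = 1.32e-05), and 2 of the 3 ob/ob arrays were above the highest control. Their mean lay under that of the triple mutant arrays' highest controls, so no fold is given. For BAT, signals were 3.77, 4.37 and 3.82 on the triple mutant BAT arrays, against 6.38, 5.08 and 4.95 on the ob/ob BAT arrays, all under the highest control, and it fell by 1.49 (SE 0.31, limma adjusted p = 0.0082). The groups did not overlap in either tissue.

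Clec4a3 had signals of 6.88, 6.61 and 7.04 on the triple mutant WAT arrays, against 9.49, 9.71 and 9.51 on the ob/ob WAT arrays. It fell in WAT, with a log2 difference of -2.73 (SE 0.26, limma adjusted p = 1.27e-05), at least 3.42-fold. All ob/ob arrays were above the control there and no triple mutant array was. In BAT it had signals of 5.99, 5.77 and 6.41 on the triple mutant BAT arrays, against 8.49, 7.35 and 7.57 on the ob/ob BAT arrays, and it fell by 1.75 (SE 0.26, limma adjusted p = 0.00146). Clec4a1 had signals of 7.20, 7.10 and 7.57 on the triple mutant WAT arrays, against 9.20, 9.45 and 9.28 on the ob/ob WAT arrays, and fell by 2.02 in WAT (SE 0.18, limma adjusted p = 9.26e-06), at least 2.86-fold. Its signals in BAT were 6.21, 6.25 and 6.74 on the triple mutant BAT arrays, against 8.15, 7.62 and 7.71 on the ob/ob BAT arrays, and it fell there by 1.42 (SE 0.18, limma adjusted p = 0.000716). For both genes the genotypes did not overlap in either tissue, and in BAT only ob/ob array 1 was above the highest control. The ITIM receptor Clec12b and Clec4a4 (DCIR2), a lectin of dendritic cells, had changes between -0.12 and 0.08, without a call.

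**Figure D2:**
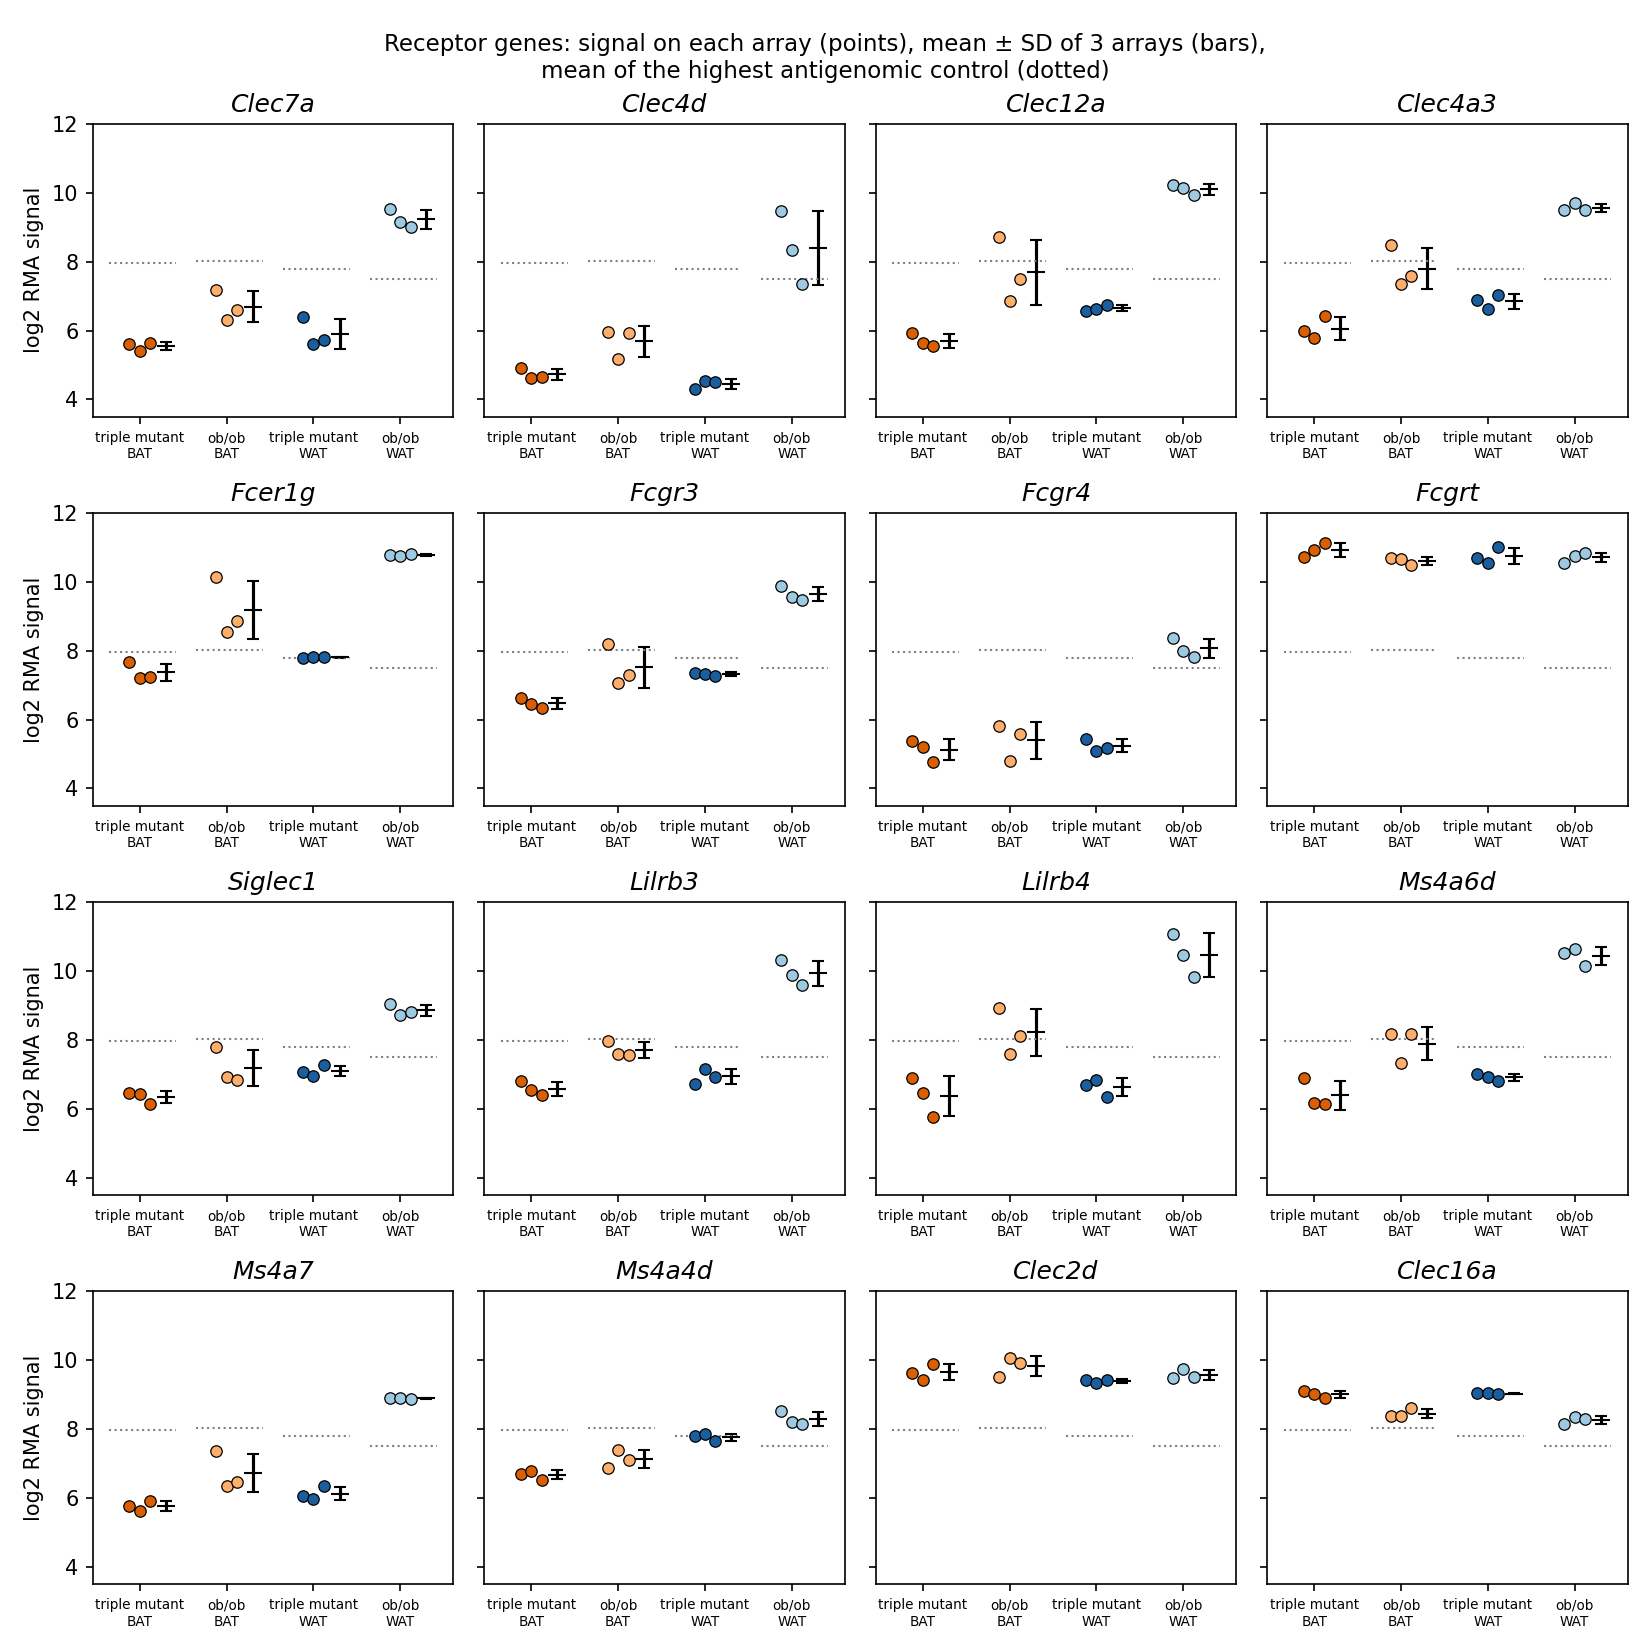
Log2 signal of 16 genes on each of the 12 arrays (points), with the mean and SD of the 3 arrays of a group (bars) and the mean of the highest antigenomic control (dotted). Clec12a, Lilrb4 and Ms4a6d lie under the dotted line in triple mutant BAT and triple mutant WAT and reach means of 10.10, 10.47 and 10.44 in ob/ob WAT, while Fcgrt and Clec2d differ little between groups and Clec16a is higher in triple mutants.

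The 7 Clec2 genes, several of which encode ligands of the Nkrp1 receptors of natural killer cells, showed no call in BAT and 1 in each direction in WAT. That is 28.6% called in WAT, against 34.3% of all genes. Clec2d, the ligand Clr-b, was the only one above the controls and changed by -0.19 in BAT and -0.18 in WAT, without a call. In triple mutant WAT, Clec2g was lower (log2 change -0.36) and Clec2l higher (0.26) (limma adjusted p = 0.0204 and 0.0211), both under the highest control on all arrays. Clec2e, Clec2h, Clec2i and Clec2j, as dim, had changes between -0.27 and 0.11 with no call.

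Of the 9 other C-type lectins, 1 was higher in triple mutant BAT and 2 in triple mutant WAT, and none was lower. That is 11.1% and 22.2% called, against 17.4% and 34.3% of all genes. Clec16a (chromosome 16, 10545480 to 10744964), named above, had signals of 9.04, 9.04 and 9.01 on the triple mutant WAT arrays, against 8.14, 8.35 and 8.28 on the ob/ob WAT arrays. It rose in WAT, with a log2 difference of 0.77 (SE 0.093, limma adjusted p = 6.95e-05), with every triple mutant array above every ob/ob array. Its BAT signals were 9.09, 9.03 and 8.89 on the triple mutant BAT arrays, against 8.37, 8.37 and 8.61 on the ob/ob BAT arrays, and it rose by 0.55 (SE 0.093, limma adjusted p = 0.00292), again without overlap. It lay above the highest control on all 12 arrays.

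Clec14a, a lectin of blood vessel endothelium, had signals of 5.82, 5.94 and 5.76 on the triple mutant WAT arrays, against 5.59, 5.42 and 5.46 on the ob/ob WAT arrays. It rose by 0.35 in WAT (SE 0.12, limma adjusted p = 0.0359), and lay under the highest control on all 12 arrays. The BAT signals were 5.59, 5.75 and 5.74 on the triple mutant BAT arrays, against 6.08, 5.63 and 5.73 on the ob/ob BAT arrays, which overlapped (log2 change -0.12, adjusted p = 0.526 by limma). Endothelial markers moved with it: of 10, 5 were higher in triple mutant WAT (17.6% of all genes). In BAT 1 was higher and 2 were lower (10.4% and 6.97% of all genes), and the part of endothelium in the Clec14a result was not tested.

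Clec4f, the glycolipid receptor of Kupffer cells in mouse liver, had signals of 5.12, 5.04 and 5.26 on the triple mutant WAT arrays, against 5.11, 4.92 and 4.91 on the ob/ob WAT arrays, under the highest control on all arrays. In BAT the signals were 5.05, 5.13 and 5.34 on the triple mutant BAT arrays, against 5.14, 5.29 and 5.02 on the ob/ob BAT arrays, and its log2 changes of 0.02 in BAT and 0.16 in WAT were not called (limma adjusted p = 0.917 and 0.286). Tetranectin (Clec3b) changed by -0.05 in BAT and -0.38 in WAT, the growth factor Clec11a by -0.27 and 0.02, and the endothelial lectin Clec1a by -0.22 and 0.18, none of them called. The liver sinusoid lectin Clec4g, the cartilage protein Clec3a and Clec18a had changes between -0.27 and 0.20, with no call. Clec18a had signals of 5.96, 6.11 and 5.98 on the triple mutant WAT arrays, against 6.06, 5.87 and 5.94 on the ob/ob WAT arrays, and 6.03, 6.14 and 6.32 on the triple mutant BAT arrays, against 6.34, 6.14 and 6.30 on the ob/ob BAT arrays, all under the highest control.

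Of the 7 Fc receptor genes, 4 were lower in triple mutant BAT and 5 in triple mutant WAT. Fcer1g (chromosome 1, 173159703 to 173164480), the ITAM chain shared by IgE and IgG receptors and by several lectins, had signals of 7.80, 7.81 and 7.81 on the triple mutant WAT arrays, against 10.79, 10.76 and 10.82 on the ob/ob WAT arrays. It fell in WAT, with a log2 difference of -2.98 (SE 0.31, limma adjusted p = 2.28e-05). Across BAT it measured 7.66, 7.21 and 7.24 on the triple mutant BAT arrays, against 10.15, 8.55 and 8.87 on the ob/ob BAT arrays, and it fell by 1.82 (SE 0.31, limma adjusted p = 0.00299), at least 2.32-fold. The WAT arrays of each group lay close together, whereas ob/ob BAT array 1 stood well above its neighbours.

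Fcgr3 (chromosome 1, 172981300 to 172989529), an activating receptor of IgG complexes, had signals of 7.37, 7.33 and 7.27 on the triple mutant WAT arrays, against 9.87, 9.56 and 9.48 on the ob/ob WAT arrays. It fell by 2.32 in WAT (SE 0.23, limma adjusted p = 1.99e-05), at least 3.59-fold. For BAT, signals were 6.64, 6.45 and 6.33 on the triple mutant BAT arrays, against 8.20, 7.05 and 7.29 on the ob/ob BAT arrays, and it fell by 1.04 (SE 0.23, limma adjusted p = 0.0111). There only ob/ob array 1 was above the highest control. The genotypes did not overlap in either tissue.

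Fcgr4 (chromosome 1, 172949012 to 172959892), an activating receptor of mouse IgG2 subclasses, had signals of 5.45, 5.09 and 5.18 on the triple mutant WAT arrays, against 8.38, 8.002 and 7.83 on the ob/ob WAT arrays. It fell by 2.83 in WAT (SE 0.25, limma adjusted p = 8.61e-06), at least 1.21-fold, with no overlap. In BAT it had signals of 5.38, 5.20 and 4.78 on the triple mutant BAT arrays, against 5.82, 4.80 and 5.58 on the ob/ob BAT arrays. These overlapped and lay under the highest control, and the log2 change of -0.28 was not called (SE 0.25, limma adjusted p = 0.481).

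Fcgr1, the high-affinity IgG receptor, had signals of 6.33, 5.80 and 5.95 on the triple mutant WAT arrays, against 7.41, 7.65 and 8.11 on the ob/ob WAT arrays. It fell by 1.70 in WAT (SE 0.32, limma adjusted p = 0.00139), and 2 of the 3 ob/ob arrays were above the highest control. Its BAT signals were 5.81, 5.89 and 5.41 on the triple mutant BAT arrays, against 7.80, 6.39 and 6.63 on the ob/ob BAT arrays, and it fell by 1.23 (SE 0.32, limma adjusted p = 0.0213). Without ob/ob BAT array 1, the highest, the BAT change was -0.80 (adjusted p = 0.0388 by limma). All its BAT signals lay under the highest control.

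Fcgr2b, the inhibitory IgG receptor, had signals of 7.99, 7.81 and 7.66 on the triple mutant WAT arrays, against 8.74, 7.94 and 8.17 on the ob/ob WAT arrays. The groups overlapped, and the log2 change of -0.47 was barely past the threshold (SE 0.17, limma adjusted p = 0.0478). The BAT signals were 6.93, 6.84 and 6.86 on the triple mutant BAT arrays, against 7.44, 7.39 and 7.49 on the ob/ob BAT arrays, tight and without overlap, and it fell by 0.56 (SE 0.17, limma adjusted p = 0.038). They were all under the highest control.

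Fcgrt, the recycling receptor, had signals of 10.70, 10.55 and 11.01 on the triple mutant WAT arrays, against 10.55, 10.75 and 10.83 on the ob/ob WAT arrays. In BAT the signals were 10.71, 10.93 and 11.14 on the triple mutant BAT arrays, against 10.71, 10.66 and 10.49 on the ob/ob BAT arrays. It lay above the highest control on all 12 arrays. The BAT groups met without overlapping and the WAT groups overlapped, and the log2 changes of 0.31 in BAT and 0.04 in WAT were not called (SE 0.14 for each, limma adjusted p = 0.155 and 0.877). Fcer2a, the low-affinity IgE receptor of B cells, changed by 0.22 in BAT and -0.03 in WAT without a call, at the level of the dim probes.

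Of the 6 Siglec genes, 3 were lower in triple mutant BAT and 2 in triple mutant WAT (50% and 33.3% called). Over all genes 17.4% and 34.3% were called (6.97% and 16.7% lower), so the WAT share is near the background of calls in either direction. Siglec1 (CD169, chromosome 2, 130894483 to 130912501), the sialoadhesin of resident macrophages, had signals of 7.07, 6.96 and 7.27 on the triple mutant WAT arrays, against 9.03, 8.73 and 8.81 on the ob/ob WAT arrays. It fell by 1.76 in WAT (SE 0.21, limma adjusted p = 6.47e-05), at least 2.09-fold. Across BAT it measured 6.45, 6.44 and 6.15 on the triple mutant BAT arrays, against 7.78, 6.93 and 6.83 on the ob/ob BAT arrays, and it fell by 0.84 (SE 0.21, limma adjusted p = 0.0194). Without ob/ob BAT array 1 that change was -0.54 (adjusted p = 0.0269 by limma). No BAT array was above the highest control. The genotypes did not overlap in either tissue.

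The remaining Siglecs lay under the highest control on all 12 arrays. Siglece, an inhibitory Siglec of myeloid cells, had signals of 5.33, 5.31 and 5.57 on the triple mutant WAT arrays, against 5.42, 5.66 and 5.64 on the ob/ob WAT arrays, which overlapped (log2 change -0.17, adjusted p = 0.323 by limma). For BAT, signals were 5.07, 5.17 and 5.47 on the triple mutant BAT arrays, against 5.83, 5.86 and 5.71 on the ob/ob BAT arrays, without overlap, and it fell by 0.56 (SE 0.12, limma adjusted p = 0.00859). Siglec15, an osteoclast Siglec that signals through Tyrobp, fell, with changes of -0.43 in BAT and -0.36 in WAT (limma adjusted p = 0.0123 and 0.0139).

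Siglech, a marker of plasmacytoid dendritic cells, had signals of 5.79, 5.53 and 5.27 on the triple mutant WAT arrays, against 5.40, 5.17 and 5.25 on the ob/ob WAT arrays, and a change of 0.26 with no call (adjusted p = 0.206 by limma). In BAT it had signals of 4.97, 5.22 and 4.91 on the triple mutant BAT arrays, against 5.56, 5.18 and 5.34 on the ob/ob BAT arrays, and a change of -0.33 with no call (adjusted p = 0.149 by limma). The gene that the annotation names Siglec5, a symbol that is an older name of both Siglecf and Siglece, had signals of 5.45, 5.44 and 5.57 on the triple mutant WAT arrays, against 5.69, 5.55 and 5.84 on the ob/ob WAT arrays, and 5.42, 5.50 and 5.40 on the triple mutant BAT arrays, against 5.77, 5.59 and 5.85 on the ob/ob BAT arrays. Its changes of -0.30 in BAT and -0.20 in WAT missed the threshold (limma adjusted p = 0.0553 and 0.138). It lies on chromosome 7 at 50606775 to 50614845, apart from the gene listed as Siglece at 50906440 to 50915613. Siglecg, an inhibitory Siglec of B cells, changed by -0.10 and -0.13 with no call.

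Of the 4 Lilr genes, 2 were lower in triple mutant BAT and 3 in triple mutant WAT. Lilrb4 (gp49B, chromosome 10, 51210781 to 51216419), an ITIM receptor of myeloid and mast cells, had signals of 6.70, 6.84 and 6.34 on the triple mutant WAT arrays, against 11.09, 10.47 and 9.84 on the ob/ob WAT arrays. It fell in WAT, with a log2 difference of -3.84 (SE 0.38, limma adjusted p = 1.84e-05), at least 6.37-fold. Its BAT signals were 6.90, 6.45 and 5.77 on the triple mutant BAT arrays, against 8.93, 7.60 and 8.11 on the ob/ob BAT arrays, and it fell by 1.85 (SE 0.38, limma adjusted p = 0.00789), at least 1.18-fold with 1 of the 3 ob/ob arrays above the highest control. Both tissues showed a gap between the genotypes. Its near-identical neighbour Gp49a changed by -1.58 in BAT and -4.15 in WAT, and how far the probes of the pair share signal is uncertain.

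Lilrb3 (PIR-B, chromosome 7, 3664134 to 3671984), an ITIM receptor of MHC class I, had signals of 6.72, 7.16 and 6.93 on the triple mutant WAT arrays, against 10.33, 9.89 and 9.60 on the ob/ob WAT arrays. It fell by 3.001 in WAT (SE 0.19, limma adjusted p = 1.62e-06), at least 4.42-fold. The BAT signals were 6.79, 6.54 and 6.40 on the triple mutant BAT arrays, against 7.97, 7.59 and 7.57 on the ob/ob BAT arrays, with a fall of 1.14 (SE 0.19, limma adjusted p = 0.0028). Neither tissue showed overlap, and all BAT signals were under the highest control. Lilra6 had signals of 4.73, 5.05 and 4.43 on the triple mutant WAT arrays, against 7.68, 5.76 and 6.40 on the ob/ob WAT arrays. It fell by 1.88 in WAT (limma adjusted p = 0.00283), and changed by -0.51 in BAT without a call. In WAT only ob/ob array 1 was above the highest control. Lilra5 changed by -0.18 in BAT and 0.19 in WAT, without a call. The Lilr and Pir genes are close copies of one another, and their probe sets may share signal.

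Of the 16 Ms4a genes, 7 were lower in triple mutant BAT, and in triple mutant WAT 8 were lower and 1 was higher. Ms4a1 (CD20), the B cell marker, was not among them. Ms4a6d (chromosome 19, 11661094 to 11679276) had signals of 7.01, 6.91 and 6.81 on the triple mutant WAT arrays, against 10.53, 10.64 and 10.16 on the ob/ob WAT arrays. It fell by 3.53 in WAT (SE 0.24, limma adjusted p = 2.67e-06), at least 6.26-fold. In BAT the signals were 6.88, 6.17 and 6.14 on the triple mutant BAT arrays, against 8.17, 7.34 and 8.17 on the ob/ob BAT arrays, and it fell by 1.498 (SE 0.24, limma adjusted p = 0.00249). Both tissues showed separate groups, and in BAT only ob/ob arrays 1 and 3 were above the highest control.

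Ms4a6c had signals of 7.44, 7.20 and 7.57 on the triple mutant WAT arrays, against 9.80, 10.38 and 9.72 on the ob/ob WAT arrays. It fell by 2.57 in WAT (SE 0.20, limma adjusted p = 5.4e-06), at least 4.51-fold. Across BAT it measured 6.89, 6.43 and 6.71 on the triple mutant BAT arrays, against 9.02, 8.43 and 8.53 on the ob/ob BAT arrays, and it fell by 1.98 (SE 0.20, limma adjusted p = 0.000284), at least 1.6-fold. All ob/ob arrays of both tissues were above the highest control, and no triple mutant array was. Ms4a6b had signals of 6.19, 6.41 and 6.37 on the triple mutant WAT arrays, against 8.06, 8.88 and 8.31 on the ob/ob WAT arrays, and fell by 2.10 in WAT (SE 0.20, limma adjusted p = 1.52e-05), at least 1.54-fold. For BAT, signals were 5.84, 5.81 and 5.58 on the triple mutant BAT arrays, against 7.51, 7.26 and 6.85 on the ob/ob BAT arrays, and it fell by 1.46 (SE 0.20, limma adjusted p = 0.00113). These BAT signals were all under the highest control. The Ms4a6 genes are close copies, and their probe sets may share signal.

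Ms4a7 had signals of 6.06, 5.98 and 6.33 on the triple mutant WAT arrays, against 8.89, 8.91 and 8.88 on the ob/ob WAT arrays. It fell by 2.77 in WAT (SE 0.21, limma adjusted p = 4.77e-06), at least 2.14-fold. In BAT it had signals of 5.75, 5.62 and 5.91 on the triple mutant BAT arrays, against 7.35, 6.35 and 6.45 on the ob/ob BAT arrays, and it fell by 0.96 (SE 0.21, limma adjusted p = 0.0108). The ob/ob WAT arrays agreed closely with one another, while ob/ob BAT array 1 stood above its neighbours. Every BAT signal was under the highest control.

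Ms4a4a, a partner of Dectin-1 in macrophages, had signals of 6.81, 7.16 and 6.81 on the triple mutant WAT arrays, against 8.72, 9.83 and 8.78 on the ob/ob WAT arrays. It fell by 2.18 in WAT (SE 0.27, limma adjusted p = 8.21e-05), at least 2.49-fold. Its BAT signals were 6.23, 6.21 and 6.57 on the triple mutant BAT arrays, against 7.59, 8.09 and 7.40 on the ob/ob BAT arrays, and it fell by 1.36 (SE 0.27, limma adjusted p = 0.00648). In both tissues ob/ob array 2 was the highest and every triple mutant array lay under every ob/ob array. In BAT only ob/ob array 2 was above the highest control.

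Ms4a14 had signals of 4.84, 5.19 and 6.06 on the triple mutant WAT arrays, against 8.02, 7.96 and 7.999 on the ob/ob WAT arrays. It fell by 2.63 in WAT (SE 0.23, limma adjusted p = 9.36e-06), at least 1.15-fold. The BAT signals were 4.68, 4.49 and 4.86 on the triple mutant BAT arrays, against 5.50, 5.38 and 5.34 on the ob/ob BAT arrays, without overlap but all under the highest control, and the change of -0.73 missed the threshold (SE 0.23, limma adjusted p = 0.0529). Ms4a4d had signals of 7.78, 7.85 and 7.64 on the triple mutant WAT arrays, against 8.51, 8.21 and 8.15 on the ob/ob WAT arrays, and fell by 0.53 in WAT (SE 0.14, limma adjusted p = 0.0114). In BAT the signals were 6.70, 6.79 and 6.52 on the triple mutant BAT arrays, against 6.88, 7.39 and 7.09 on the ob/ob BAT arrays, and it fell by 0.45 (SE 0.14, limma adjusted p = 0.0468). Its genotypes did not overlap in either tissue, and its BAT signals were all under the highest control.

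Ms4a1 had signals of 4.82, 4.58 and 4.45 on the triple mutant WAT arrays, against 4.51, 4.65 and 4.65 on the ob/ob WAT arrays, and 4.39, 4.19 and 3.88 on the triple mutant BAT arrays, against 4.13, 3.78 and 3.98 on the ob/ob BAT arrays, with changes of 0.19 in BAT and 0.01 in WAT that were not called (limma adjusted p = 0.413 and 0.957). It lay under the highest control on all arrays. Ms4a4b, a T cell member in mice, fell in WAT (-0.74), and Ms4a4c fell in BAT (-0.72) (limma adjusted p = 0.0134 and 0.0353). Ms4a5 was higher in triple mutant WAT by 0.34 (limma adjusted p = 0.0127) among the dimmest signals. Ms4a3, a gene of granulocyte and monocyte progenitors, and Ms4a8a, Ms4a10, Ms4a13 and Ms4a15 had changes between -0.30 and 0.22 in the 2 tissues, with no call.

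Several of these genes lie side by side in the genome, and neighbours did not all move. The background for the counts below is 6.97% of all genes lower in BAT and 16.7% lower in WAT. In the Clec4 cluster (chromosome 6, 122871876 to 123239889, NCBIM37), 5 of 9 genes were lower in triple mutant BAT and 5 in triple mutant WAT, with Clec4a4, Clec4b2 and Clec4e called in neither. In the cluster from Clec2j to Clec7a, on chromosome 6 at 128602456 to 129422790, 2 of 12 were lower in BAT and 4 in WAT. There Clec12a at -3.45 in WAT lies next to Clec12b at -0.01, and Clec7a at -3.32 next to Clec1a at 0.18. In the Fcgr cluster (chromosome 1, 172890689 to 173164480), 3 of 4 genes were lower in BAT and 4 of 4 in WAT. The Ms4a cluster (chromosome 19, 11036779 to 11715324) held all 16 Ms4a genes, and its called falls ran from Ms4a14 to Ms4a6d. Many of the unmoved neighbours had signals at background on all arrays, where a fall would be hard to measure.

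**Figure D3:**
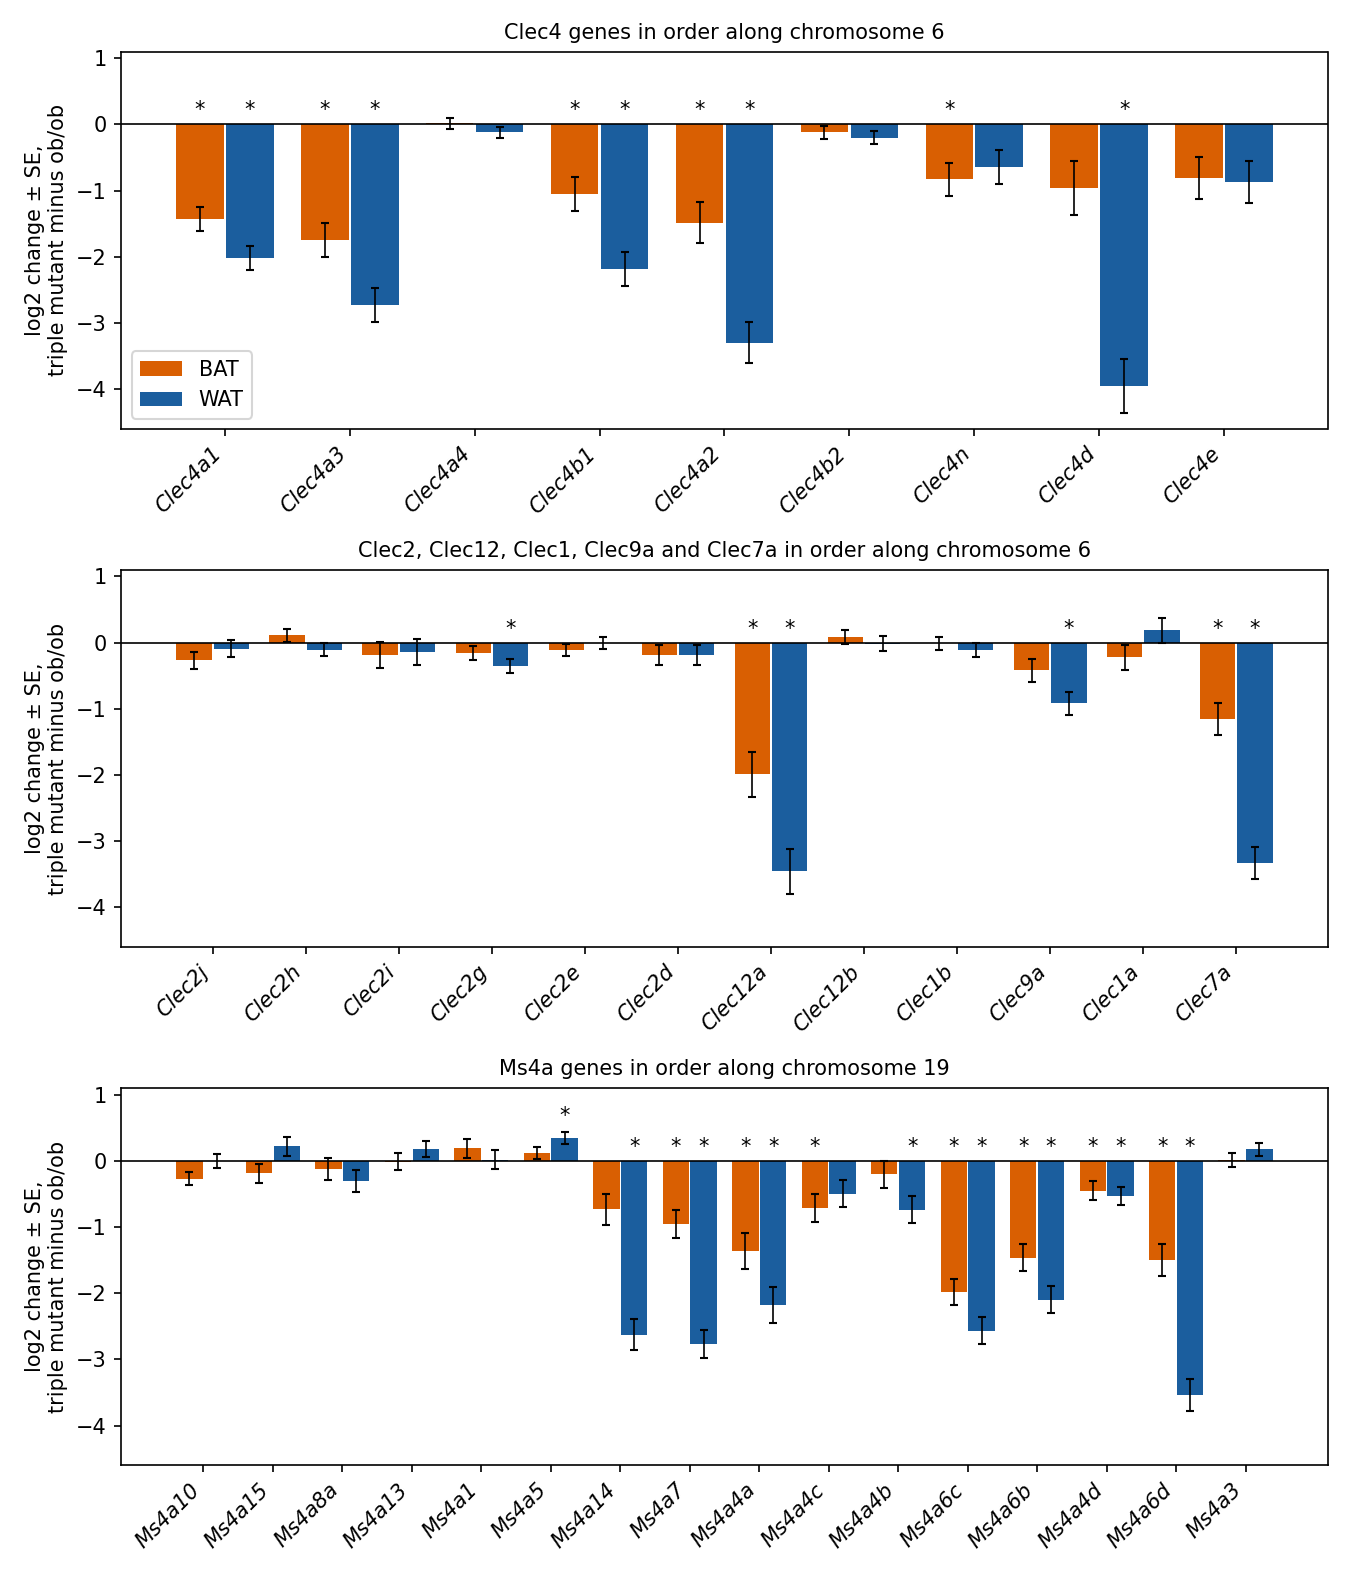
Log2 change between triple mutants and ob/ob (bars, with SE) in BAT (orange) and WAT (blue), with genes placed in their order along the chromosome and not to distance; a star marks a call. Falls and genes near 0 are mixed in the Clec4 cluster. In the other chromosome 6 cluster the Clec2 genes, none beyond -0.36 in WAT, come before the large falls of Clec12a and Clec7a. In the Ms4a cluster the falls sit between Ms4a14 and Ms4a6d.

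Of the 32 calls in WAT, 24 were kept under every alternative that tested them and 8 were lost under at least 1. With arrays left out 1 at a time, Clec14a lost its call without triple mutant WAT 1 or 2 or ob/ob WAT 2 or 3 (change 0.30 to 0.36, adjusted p = 0.0712 to 0.121 by limma). The call of Clec2g was lost without triple mutant WAT 1 or 2 or ob/ob WAT 1 or 3 (change -0.35 to -0.31, adjusted p = 0.0518 to 0.0743 by limma). For Clec2l the call ended without triple mutant WAT 1 or ob/ob WAT 2 or 3 (change 0.21 to 0.27, adjusted p = 0.0519 to 0.0876 by limma). Fcgr2b lost its call without triple mutant BAT 1 or 2 or 3 or ob/ob BAT 1 or 2 or 3 or triple mutant WAT 2 or 3 or ob/ob WAT 1 or 3 (change -0.52 to -0.24, adjusted p = 0.0574 to 0.156 by limma). The call of Ms4a4b was lost without triple mutant WAT 2 or ob/ob WAT 1 (change -0.65 to -0.55, adjusted p = 0.0551 to 0.0605 by limma). For Ms4a4d the call ended without ob/ob WAT 1 (change -0.42, adjusted p = 0.0546 by limma). Ms4a5 lost its call without ob/ob WAT 2 (change 0.30, adjusted p = 0.0538 by limma). The call of Siglec15 was lost without triple mutant WAT 2 or ob/ob WAT 1 (change -0.33 to -0.25, adjusted p = 0.0522 to 0.0581 by limma). Quantile normalization within each tissue ended the calls of Clec2l (adjusted p = 0.0701 by limma) and Fcgr2b (0.0741), and a fit of the WAT arrays alone those of Clec2l (adjusted p = 0.0581 by limma) and Fcgr2b (0.127). The replicate block ended those of Clec14a (adjusted p = 0.0911 by limma) and Clec2g (0.0602). For the genotype comparison in either tissue, that block joins same-numbered triple mutant and ob/ob arrays, which no label pairs. Leaving out a BAT array acts on a WAT call through the shared estimate of the spread alone. Without ob/ob WAT array 1 the change of Fcgr2b was -0.24.

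Of the 25 calls in BAT, 17 were kept under every alternative that tested them and 8 were lost under at least 1. With arrays left out 1 at a time, Clec4b1 lost its call without triple mutant BAT 3 (change -1.001, adjusted p = 0.057 by limma). The call of Clec4n was lost without triple mutant BAT 1 or 2 or 3 or ob/ob BAT 1 or 3 or triple mutant WAT 1 or 2 or ob/ob WAT 3 (change -0.93 to -0.52, adjusted p = 0.0535 to 0.138 by limma). For Clec5a the call ended without triple mutant BAT 1 or 2 or 3 or ob/ob BAT 1 or 3 or triple mutant WAT 1 or 2 or ob/ob WAT 2 (change -0.90 to -0.56, adjusted p = 0.0509 to 0.128 by limma). Fcgr1 lost its call without triple mutant BAT 3 (change -1.09, adjusted p = 0.0799 by limma). The call of Fcgr2b was lost without triple mutant BAT 1 or 2 or 3 or ob/ob BAT 1 or 2 or 3 or triple mutant WAT 2 (change -0.59 to -0.54, adjusted p = 0.0538 to 0.102 by limma). For Ms4a4c the call ended without triple mutant BAT 2 or 3 or ob/ob BAT 1 or 3 (change -0.65 to -0.62, adjusted p = 0.109 to 0.119 by limma). Ms4a4d lost its call without triple mutant BAT 1 or 2 or 3 or ob/ob BAT 2 or 3 or triple mutant WAT 1 or 2 or ob/ob WAT 2 or 3 (change -0.51 to -0.31, adjusted p = 0.0501 to 0.151 by limma). The call of Siglec1 was lost without triple mutant BAT 3 (change -0.74, adjusted p = 0.0746 by limma). Quantile normalization within each tissue ended the calls of Clec4n (adjusted p = 0.0627 by limma), Clec5a (0.0516), Ms4a4c (0.0715) and Ms4a4d (0.0616). Median centring ended those of Clec4n (adjusted p = 0.0643 by limma), Clec5a (0.0581), Fcgr2b (0.077) and Ms4a4d (0.123). A fit of the BAT arrays alone ended those of Clec4n (adjusted p = 0.084 by limma), Clec5a (0.0614), Fcgr1 (0.0566), Ms4a4c (0.054), Ms4a4d (0.0835) and Siglec1 (0.0639). The replicate block ended those of Clec4n (adjusted p = 0.0562 by limma) and Clec5a (0.0695). The number called was 17 without triple mutant BAT array 3, the lowest. The array ob/ob BAT 1 was the highest of its group for 17 of the 24 lower genes. Without ob/ob BAT array 3 the change of Clec4n was -0.52.

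Whether the genotype effect was unequal in the tissues was tested as the BAT effect minus the WAT effect. For 11 of the 64 genes (17.2%) this difference was called, against 13.9% of all genes. It was positive, meaning a smaller fall in BAT, for 10 genes, against 8.4% of all genes. With arrays centred on their medians 13 were called, all positive, and 798 of 3596 calls over all genes were negative, against 1184 of 3002. Clec4d had the largest difference, 2.99 (SE 0.57, limma adjusted p = 0.00788), with effects of -0.96 in BAT and -3.95 in WAT. Fcgr4 followed at 2.55 (SE 0.35, adjusted p = 0.00185 by limma), with -0.28 in BAT and -2.83 in WAT. Clec7a differed by 2.17, Ms4a6d by 2.03 and Lilrb4 by 1.996 (limma adjusted p = 0.00339, 0.00466 and 0.0326). Ms4a14 differed by 1.90, Lilrb3 by 1.87 and Ms4a7 by 1.81 (limma adjusted p = 0.00521, 0.0023 and 0.00428). Clec4a2 at 1.81 and Fcgr3 at 1.27 completed the 10 (limma adjusted p = 0.0214 and 0.0275).

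Several large falls were not called different by this test. The difference was 0.58 for Ms4a6c, 0.63 for Ms4a6b, 0.60 for Clec4a1 and 0.98 for Clec4a3 (limma adjusted p = 0.197, 0.163, 0.14 and 0.0926). For Fcer1g it was 1.16 (limma adjusted p = 0.0981), and a p that misses the threshold does not show that the effects are equal. With the replicate number as a block, Clec12a (1.47), Siglec1 (0.93), Ms4a4a (0.82), Clec14a (-0.47) and Siglech (-0.58) were also called, at adjusted p = 0.0353 to 0.0467 by limma. The 1 negative difference was in Clec2l, at -0.41 (limma adjusted p = 0.0297). Leaving out 1 array moved the number called to between 7 (triple mutant array 2 of either tissue) and 16 (ob/ob BAT array 1). Clec4d, Fcgr4, Clec7a, Ms4a6d, Ms4a14, Lilrb3 and Ms4a7 kept their calls under every setting that tested them. Clec2l lost its call without triple mutant BAT 2 or 3 or ob/ob BAT 1 or 2 or triple mutant WAT 1 or 2 or ob/ob WAT 1 or 2 or 3 (change -0.43 to -0.36, adjusted p = 0.0505 to 0.0667 by limma). With quantile normalization within each tissue its difference was -0.25 (adjusted p = 0.189 by limma), and with median centring -0.30 (adjusted p = 0.0887 by limma). The call of Clec4a2 was lost without triple mutant BAT 2 or ob/ob BAT 3 or triple mutant WAT 2 or ob/ob WAT 1 (change 1.55 to 1.73, adjusted p = 0.0507 to 0.0523 by limma). For Fcgr3 the call ended without triple mutant BAT 1 or 2 or ob/ob BAT 3 or triple mutant WAT 1 or 2 or ob/ob WAT 1 or 2 (change 1.16 to 1.31, adjusted p = 0.0509 to 0.0705 by limma). Lilrb4 lost its call without triple mutant BAT 1 or 2 or ob/ob BAT 2 or 3 or triple mutant WAT 1 or 2 or 3 or ob/ob WAT 1 or 2 (change 1.68 to 2.10, adjusted p = 0.0514 to 0.0754 by limma). The 2 effects share no arrays, but 27 of the genes had lower signals in ob/ob BAT than in ob/ob WAT, and the part of background in the smaller BAT effects was not tested.

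Between the tissues of ob/ob mice, 27 of the 64 genes were lower in BAT and 5 higher (50%), against 37.2% of all genes (19% lower and 18.2% higher). With median centring 27 were lower and 28 called in all, and 4607 of 7445 calls over all genes were lower in BAT, against 4120 of 8060. The largest differences were those of Clec4d at -2.71, Fcgr4 at -2.67, Ms4a14 at -2.58, Ms4a6d at -2.55 and Clec7a at -2.53 (limma adjusted p = 0.000386, 2.24e-05, 2.01e-05, 2.66e-05 and 2.66e-05). Clec12a followed at -2.42, Lilrb4 at -2.25 and Lilrb3 at -2.23 (limma adjusted p = 0.000259, 0.000888 and 1.44e-05). Lilrb3 for example had 7.97, 7.59 and 7.57 on the ob/ob BAT arrays, against 10.33, 9.89 and 9.60 on the ob/ob WAT arrays, at least 3.79-fold lower in BAT. The macrophage markers moved with them, 13 of 15 lower in ob/ob BAT than in ob/ob WAT. Of 10 mast cell genes 8 were lower and 1 higher. All 8 skeletal muscle genes were higher in ob/ob BAT (median 4.47), as were 7 of 8 brown adipocyte and 8 of 10 endothelial genes. The part of these shifts in the receptor differences was not tested. Every BAT array lay below every WAT array for 27 of the 64 genes (22% of all genes) and above for 10 (30.1% of all genes). The 5 higher genes were Ms4a15 (0.45), Clec4g (0.38), Clec2l (0.36), Clec14a (0.32) and Clec18a (0.30), each under the highest control on all 12 arrays.

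Ms4a15 had 6.07, 5.72 and 6.31 on the ob/ob BAT arrays, against 5.70, 5.48 and 5.58 on the ob/ob WAT arrays, and 5.65, 5.85 and 6.02 on the triple mutant BAT arrays, against 5.69, 5.82 and 5.90 on the triple mutant WAT arrays. The ob/ob tissues did not overlap and the triple mutant tissues did. Of the 5 rises, Clec2l alone kept its call under every setting that tested it. Clec14a lost its call without triple mutant BAT 1 or 2 or 3 or ob/ob BAT 1 or 3 or triple mutant WAT 1 or 2 or ob/ob WAT 1 or 2 or 3 (change 0.19 to 0.38, adjusted p = 0.0527 to 0.168 by limma). The call of Clec18a was lost without ob/ob BAT 1 or 3 or ob/ob WAT 2 or 3 (change 0.26 to 0.29, adjusted p = 0.0721 to 0.119 by limma). For Clec4g the call ended without triple mutant BAT 2 or 3 or ob/ob BAT 1 or 2 or triple mutant WAT 2 or ob/ob WAT 1 or 2 or 3 (change 0.28 to 0.43, adjusted p = 0.053 to 0.147 by limma). Lilra6 lost its call without ob/ob BAT 1 or 2 or ob/ob WAT 1 (change -1.21 to -0.68, adjusted p = 0.0631 to 0.099 by limma). The call of Ms4a15 was lost without ob/ob BAT 1 or 3 or ob/ob WAT 2 or 3 (change 0.31 to 0.45, adjusted p = 0.0651 to 0.127 by limma). For Ms4a4b the call ended without triple mutant BAT 1 or 2 or 3 or ob/ob BAT 2 or 3 or ob/ob WAT 1 or 2 (change -0.58 to -0.39, adjusted p = 0.0519 to 0.152 by limma). As a mean over its 2 probe sets Clec4g differed by 0.20 (adjusted p = 0.173 by limma). Quantile normalization within each tissue ended the calls of Clec14a (adjusted p = 0.105 by limma), Clec18a (0.0731), Clec4g (0.102) and Ms4a15 (0.0556). Median centring ended those of Clec14a (adjusted p = 0.0887 by limma), Clec18a (0.0822), Clec4g (0.0932) and Ms4a15 (0.0579). A fit of the ob/ob arrays alone ended those of Clec14a (adjusted p = 0.101 by limma), Lilra6 (0.0883), Ms4a15 (0.0628) and Ms4a4b (0.103). With the intensity trend and robust prior the call of Clec14a (adjusted p = 0.0522 by limma) ended. With the replicate block Clec4g was not called (adjusted p = 0.0766 by limma), while Clec1a (0.42) and Ms4a4c (-0.49) were, at adjusted p = 0.0163 and 0.0031 by limma.

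Between the tissues of triple mutants, 9 of the 64 genes were lower in BAT and none higher. That is 14.1% called, near the 14.4% of all genes called in either direction. By direction, 7.93% of all genes were lower in BAT and 6.45% higher. All BAT arrays lay below all WAT arrays for 22 of the 64 genes and above for 3 (16% and 16.7% of all genes). At an unadjusted p under 0.05 there were 18 (28.1%), against 27% of all genes. The array numbers may pair the tissues, which no label states, and with them as a block 12 receptor genes and 3493 of all genes were called. The block added Clec9a (-0.42), Ms4a14 (-0.68) and Ms4a4a (-0.59), all lower in BAT, at adjusted p = 0.0439, 0.0343 and 0.0407 by limma. With median centring 1461 of 3324 calls over all genes were lower in BAT, against 1716 of 3112. The largest difference was that of Ms4a4d, with 6.70, 6.79 and 6.52 on the triple mutant BAT arrays, against 7.78, 7.85 and 7.64 on the triple mutant WAT arrays (-1.09, limma adjusted p = 0.000529). Fcgr2b (-0.94, adjusted p = 0.00327) and Clec4a1 (-0.89, adjusted p = 0.00723) were also lower in BAT by limma, and these 3 kept their calls under every setting. The calls of Fcgr3 (-0.85), Siglec1 (-0.75), Ms4a6c (-0.73), Ms4a4c (-0.71), Siglech (-0.50) and Ms4a1 (-0.47) did not. Fcgr3 lost its call without triple mutant BAT 1 or 2 or 3 or triple mutant WAT 1 or 2 or 3 (change -0.94 to -0.78, adjusted p = 0.0505 to 0.103 by limma). The call of Ms4a1 was lost without triple mutant BAT 2 or 3 or ob/ob BAT 3 or triple mutant WAT 1 or 2 or ob/ob WAT 1 or 2 or 3 (change -0.48 to -0.33, adjusted p = 0.0578 to 0.184 by limma). For Ms4a4c the call ended without triple mutant BAT 2 or 3 or ob/ob BAT 3 or triple mutant WAT 1 or 2 or ob/ob WAT 1 or 3 (change -0.79 to -0.51, adjusted p = 0.05 to 0.159 by limma). Ms4a6c lost its call without triple mutant BAT 2 or 3 or triple mutant WAT 1 or 3 (change -0.75 to -0.61, adjusted p = 0.0783 to 0.12 by limma). The call of Siglec1 was lost without triple mutant BAT 1 or 2 or 3 or triple mutant WAT 1 or 2 or 3 (change -0.82 to -0.65, adjusted p = 0.0666 to 0.125 by limma). For Siglech the call ended without triple mutant BAT 1 or 3 or ob/ob BAT 3 or triple mutant WAT 1 or 2 or ob/ob WAT 2 or 3 (change -0.50 to -0.37, adjusted p = 0.052 to 0.157 by limma). Quantile normalization within each tissue ended the calls of Ms4a1 (adjusted p = 0.106 by limma), Ms4a4c (0.0642) and Siglech (0.0694). Median centring ended that of Ms4a1 (adjusted p = 0.0558 by limma), and a fit of the triple mutant arrays alone those of Ms4a1 (adjusted p = 0.0975 by limma), Ms4a4c (0.0667) and Siglech (0.074). Leaving out 1 array moved the count to between 3 (triple mutant BAT array 3) and 14 (ob/ob BAT array 1 or 2), and to 4 without triple mutant BAT array 2, triple mutant WAT array 1 or triple mutant WAT array 2.

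**Figure D4:**
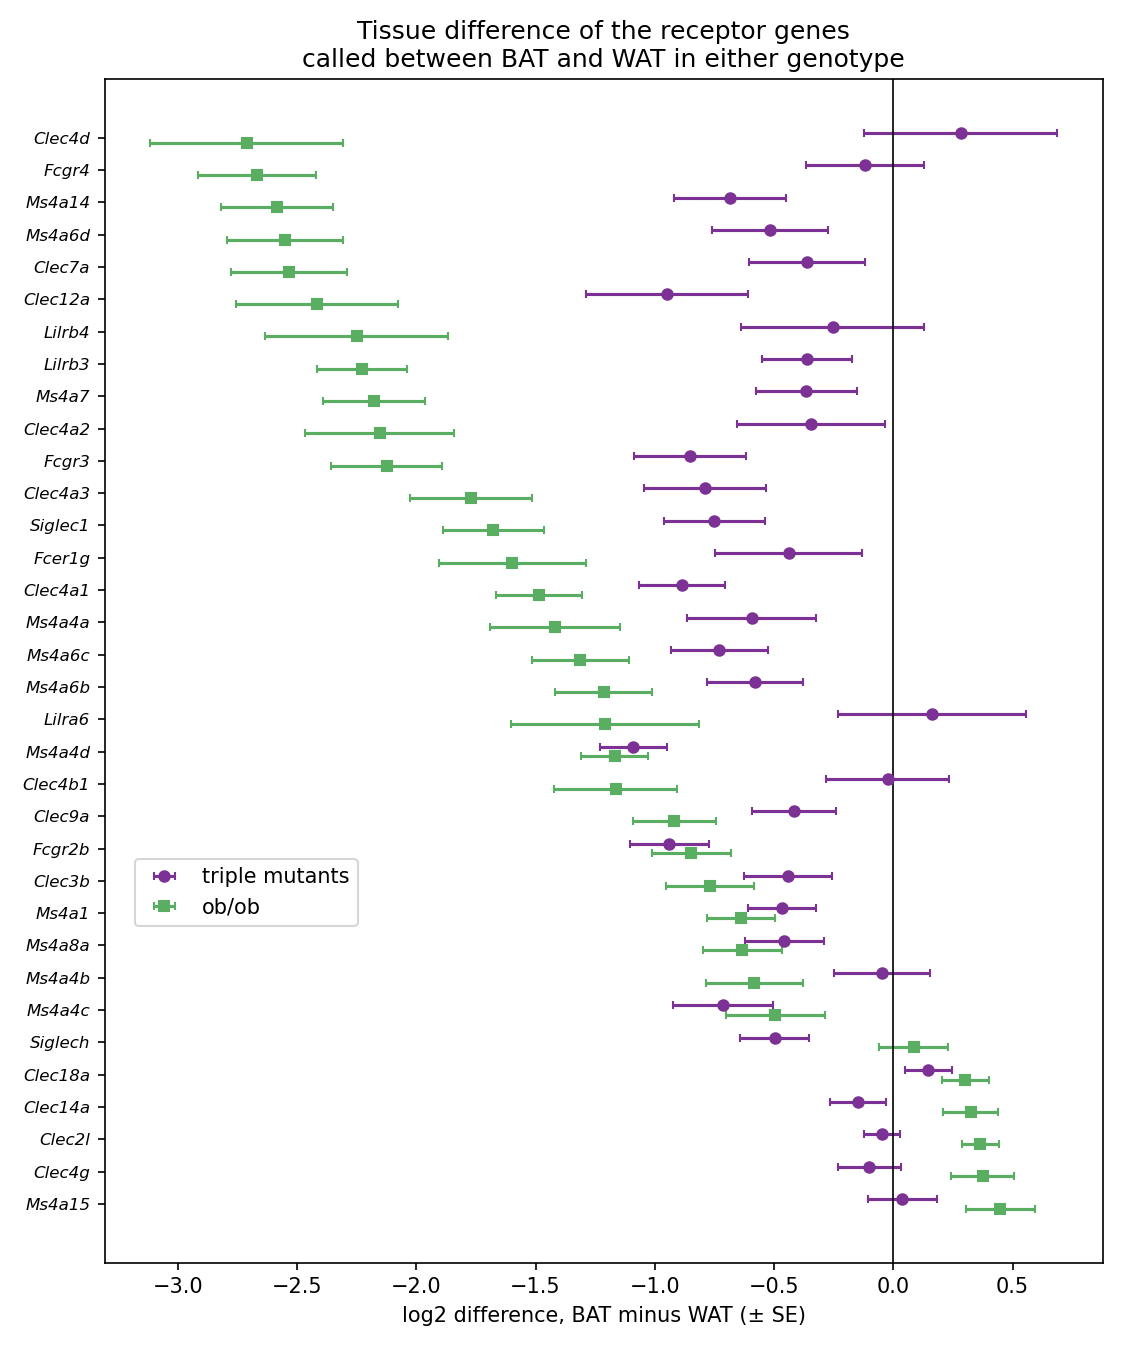
Log2 difference between BAT and WAT (with SE) in triple mutants (purple circles) and in ob/ob (green squares) for the 34 genes called in either genotype, ordered by the ob/ob value. Clec4d stands at 0.28 in triple mutants and -2.71 in ob/ob, whereas Ms4a4d stands at -1.09 and -1.17.

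The signalling genes downstream of these receptors were described from a list of 20 activating adapters and kinases. Of these, 16 were lower in triple mutant BAT and 19 in triple mutant WAT, with none higher, and the median log2 changes were -1.03 and -2.22. Over all genes 6.97% and 16.7% were lower. The kinase Syk, listed as Sykb, changed by -0.96 in BAT and -2.84 in WAT on the log2 scale. Tyrobp, the adapter of Clec5a and Siglec15, changed by -1.93 and -3.29. The adapter Bin2 changed by -0.68 and -2.86, and the Src-family kinase Lyn by -0.69 and -1.62. All 4 fell in both tissues by the call. Of 10 inhibitory phosphatases and adapters, 6 were lower and 1 higher in each tissue. The lipid phosphatase Inpp5d fell, with changes of -1.27 in BAT and -2.33 in WAT. The adapters Dok1, Dok2 and Dok3 fell too, at -0.75, -1.06 and -0.45 in BAT and -1.54, -1.94 and -1.15 in WAT.

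Of 47 related receptors with other symbols, 11 were lower in triple mutant BAT with none higher, and 22 were lower and 4 higher in triple mutant WAT. Over all genes 6.97% were lower in BAT, and in WAT 16.7% were lower and 17.6% higher. The mannose receptor Mrc1 fell, with changes of -1.44 in BAT and -1.78 in WAT. So did Cd200r1, the inhibitory receptor of Cd200, at -1.18 and -4.08, and Cd300lb at -1.08 and -3.74. Cd72 fell in WAT (-4.002), and its BAT change of -0.72 was not called. The 4 higher in WAT were Cd209b, Cd209d, Cd209f and Cd209g, relatives of the dendritic cell lectin DC-SIGN. Cd209f and Cd209g fall outside the rule for named genes and are named since the count is small.

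Markers of other cell types that carry some of these receptors were counted the same way. Over all genes, 6.97% were lower and 10.4% higher in BAT, and 16.7% lower and 17.6% higher in WAT. Of 10 mast cell genes, none was called in BAT (the lowest limma adjusted p was that of Cpa3, 0.0885) and in WAT 8 were lower and 1 higher in triple mutants. Their mean signal was 5.53 to 5.74 in triple mutant BAT against 5.25 to 5.55 in ob/ob BAT, and 5.39 to 5.52 in triple mutant WAT against 6.18 to 6.84 in ob/ob WAT. Of 9 dendritic cell genes, 2 were lower in BAT and 4 in WAT. Of 11 neutrophil genes, 1 was lower in BAT, and in WAT 2 were lower and 1 higher. Of 10 B cell genes, none was called in BAT, and in WAT 3 were lower and 1 higher. The means of the neutrophil genes lay between 4.34 and 4.62 on all arrays, far under the highest control, and the part of these cells in the receptor changes was not tested. Of 8 skeletal muscle genes none was called in BAT, where their mean ran from 7.22 to 11.2 in triple mutants and 8.26 to 11.6 in ob/ob.

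Genes of adipocytes, red blood cells and lymphatic vessels were higher in triple mutant WAT beside the receptor falls. Over all genes 17.6% were higher in WAT and 10.4% in BAT. Of 9 adipocyte genes 8 were higher in triple mutant WAT, with a median log2 change of 1.01, and 2 in triple mutant BAT. Their mean signal was 11.78 to 11.85 in triple mutant WAT against 10.17 to 10.95 in ob/ob WAT. Of 8 brown adipocyte genes 6 were higher in triple mutant WAT (median 2.91) and 1 in triple mutant BAT. Their mean was 8.07 to 8.75 in triple mutant WAT against 5.46 to 5.87 in ob/ob WAT. All 7 erythroid genes were higher in triple mutant WAT (median 1.17) and 2 in triple mutant BAT, and their mean was 9.13 to 9.25 in triple mutant WAT against 7.79 to 8.44 in ob/ob WAT. Of 6 lymphatic endothelial genes 4 were higher in triple mutant WAT (median 0.89) and none was called in BAT. None of these genes was lower in either tissue. The part of these shifts in the receptor falls was not tested.

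The authors' deposited tables of changed genes list 27 of the 64 genes for WAT, 26 lower and 1 higher, and 6 for BAT, all lower. Every gene listed in the authors' deposited tables had the same direction as here, and 25 of the 27 and 5 of the 6 were also called here. The authors' log2 changes minus those found here ran from -0.01 to 0.85 in WAT and from 0.06 to 0.26 in BAT. Of the genes called here, 7 in WAT and 20 in BAT are not in the authors' deposited tables. The authors' rule for listing a gene was not used here.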

How the data were processed

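RNA from 12 samples was hybridised to Affymetrix mouse gene arrays, 3 in each of 4 groups taken from the sample labels. The deposited values are log2 signals that the authors made with RMA, per the submitters' processing notes, which also name limma; versions are not given in the sources used here. The log2 fold changes in the authors' deposited tables were only compared. Genes were the main-category probe sets with 1 symbol in the deposited annotation, at the probe set with the highest mean, giving 21651 genes. A further 12 columns of the deposited expression table match no sample's labels uniquely and were not used.

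A linear model of 4 group means was fitted to all 12 arrays with limma 3.58.1 in R 4.3.3 (8 residual degrees of freedom, 3.47 prior), with 5 two-sided contrasts and Benjamini-Hochberg adjustment over all genes, called under 0.05. The script was tested on simulated data. Array number limits the precision. Named genes were a fixed set plus the 8 largest called changes in each direction of each contrast with a higher group mean of at least 6; of other genes, at most 4 of a list by smallest p. The members and lists were chosen with earlier results of these data known. Same-numbered arrays of the 2 tissues deviated together (r of 0.15 to 0.22 in all 6 pairs over genes), and differently numbered ones less so (-0.24 to 0.07). Same-numbered arrays of the 2 genotypes did not (-0.43 to 0.11), while differently numbered ones reached 0.32. The numbers may thus pair the tissues, but an r of this size does not establish it and no label states it. Positions are on NCBIM37, and promoter windows from RefSeq on GRCm38.p6. Alternatives were filters on dim genes, further scaling, other gene summaries and priors, the replicate block and leaving out each array. Protein sequences were not used here.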

Additional observations from a re-analysis of the deposited data

Results flagged for a closer look

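For 11 genes the genotype effect differed between the tissues by the test of the difference itself, the BAT effect minus the WAT effect (limma, adjusted p under 0.05). That is 17.2% of the 64 genes, against 13.9% of all genes. It was 2.99 for Clec4d, 2.55 for Fcgr4, 2.17 for Clec7a, 2.03 for Ms4a6d and 1.9965 for Lilrb4. It was 1.90 for Ms4a14, 1.87 for Lilrb3, 1.81 for Ms4a7, 1.81 for Clec4a2 and 1.27 for Fcgr3. In these 10 genes the fall was smaller in BAT than in WAT. For Clec2l the difference was -0.41, from a change of -0.15 in BAT and 0.26 in WAT, all under the highest control. Of the 15 macrophage markers, 8 differed in the same positive direction, against 8.4% of all genes, and their part in these results was not tested.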

How the results depend on the processing

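No called change of a receptor gene turned direction under the alternatives run. Of the changes that were not called, 11 in BAT, 7 in WAT, 14 for the difference between tissues, 23 between the tissues of triple mutants and 13 between those of ob/ob turned under at least 1, none of them above 0.254 in size. Calls kept under every alternative that tested them numbered 17 of 25 in BAT, 24 of 32 in WAT, 7 of 11 for the difference between tissues, 3 of 9 between the tissues of triple mutants and 26 of 32 between those of ob/ob. Testing only genes above the highest control on at least 3 arrays, and so fewer genes, left 4459 genes and 19 receptor genes called in WAT, 1797 genes between the tissues of triple mutants, and 4415 genes and 18 receptor genes between those of ob/ob. Leaving out 1 array gave 2466 to 4056 genes in BAT, 5984 to 7505 in WAT, 1778 to 3399 for the difference, 1836 to 3589 between the tissues of triple mutants and 5931 to 8512 between those of ob/ob. For the receptor genes it gave 17 to 26 in BAT, 27 to 33 in WAT, 7 to 16 for the difference, 3 to 14 between the tissues of triple mutants and 28 to 32 between those of ob/ob. With the replicate block, 23 receptor genes were called in BAT, 31 in WAT, 16 for the difference, 12 between the tissues of triple mutants and 33 between those of ob/ob. The block ended the calls of Clec4n (adjusted p = 0.0562 by limma) and Clec5a (0.0695) in BAT and of Clec14a (0.0911) and Clec2g (0.0602) in WAT. Signal over background limits 38 of the 64 genes, which lay under the highest control on all arrays.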
